A study of Mus musculus with 10 samples.

Results

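The 10 genes described here make the peptides that major histocompatibility complex (MHC) class I molecules present, load them, or switch that machinery on. They are B2m, Tap1, Tap2, Tapbp, Psmb8, Psmb9, Psmb10, Psme1, Psme2 and Nlrc5, taken by symbol from the raw count table. All 10 were among the 13932 genes listed there, and all 10 were among the 12477 genes that passed the filter on low counts. RNA was sequenced from live epithelial cells of the mouse ileum, sorted as CD45- EpCAM+, with 400000 cells in each sort. All 10 libraries carried H2-Ab1 fl/fl, a floxed MHC class II beta chain gene. The 5 dIEC libraries were Villin:Cre+, with Cre driven by a promoter of the intestinal epithelium, and the 5 WT libraries were Villin:Cre-. The sample labels are followed here, since the series text gives Cre- for both groups. Each group held 3 males and 2 females. The females were WT 8, WT 10, dIEC 7 and dIEC 9. Ages and strain background were not given in the sources used here. Nothing in the labels said whether the libraries came from separate mice or pools, so p-values measure the spread between these libraries.

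Class I molecules show the cell's own proteins to CD8 T cells. Proteasomes cut those proteins into peptides. Under interferon gamma, the catalytic subunits Psmb5, Psmb6 and Psmb7 are exchanged for Psmb8, Psmb9 and Psmb10, which form the immunoproteasome, and Psme1 and Psme2 form the PA28 cap that opens its core. Tap1 and Tap2 pump the peptides into the endoplasmic reticulum, where Tapbp (tapasin) holds the empty class I heavy chain beside them. B2m is the light chain of every class I molecule. Nlrc5 is the transactivator of class I promoters, which it reaches through the RFX and NF-Y factors bound to the X and Y boxes. Its relative Ciita does the same for class II genes, H2-Ab1 included.

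The promoter letters are shown because the values below were compared with those of Nlrc5 library by library. RefSeq starts on GRCm38.p6 were found for 8 of the 10 genes, with 9 promoters in all. Nlrc5 and Tap2 are named only. The 250 bases before each start were searched on both strands for 4 motifs: a pair of GAAA separated by 2 bases of any kind (interferon-stimulated response element core), TTCNNNGAA (gamma-activated site), TGACG (core of the X2 box) and CCAAT (core of the Y box). None of the 4 contains another. The promoter of B2m, at chr2:122147437-122147686 on the plus strand, held the first, the third and, as ATTGG, the fourth. Capitals mark the matches.
B2m: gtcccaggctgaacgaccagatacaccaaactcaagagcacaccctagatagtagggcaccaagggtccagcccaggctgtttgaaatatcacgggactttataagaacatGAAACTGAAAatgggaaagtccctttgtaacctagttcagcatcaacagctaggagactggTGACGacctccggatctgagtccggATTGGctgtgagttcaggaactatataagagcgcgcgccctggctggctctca
Its matches began at positions -139, -78 and -53 from the start. The upstream windows of Tap1 and Psmb9 overlapped by 225 bases, because these genes run in opposite directions from starts 226 bases apart. The stretches below are the matches in that shared window, in Psmb8 and in Psme2, the PA28 gene that is set beside them later, and capitals again mark the motif.
Tap1, chr17:34187460-34187484, plus strand: cagagacaggTGACGacagagggtc
Tap1, chr17:34187324-34187348, plus strand: gctcggctttCCAATcagcggctgc
Psmb8, chr17:34198090-34198114, plus strand: ctccgctgTTCCCAGAAgatgcccc
Psme2, chr14:55591246-55591270, minus strand: ctcagtctagCGTCAtggaacccca
Psmb9 read the same TGACG and CCAAT letters from the other strand. Psme2 held TGACG on the opposite strand, as CGTCA. In GENCODE, the Tap1 window also lies within an exon of a longer Psmb9 transcript, mostly untranslated, and the Psmb8 window within an untranslated exon of a longer Psmb8 transcript. Tapbp held CCAAT at 2 places. Psmb10 and Psme1 held none of the 4. Over 32851 promoters of this length, the GAAA pair stood in 2.98%, TTCNNNGAA in 7.02%, TGACG in 17.8%, CCAAT in 33.8%, and TGACG together with CCAAT in 6.12%. A match is a description of letters and not a shown binding site.

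Libraries held 9174101 to 13484363 counts. H2-Ab1, the targeted gene, fell in dIEC libraries, from 208 ± 117 to 2.14 ± 0.96 CPM (counts scaled to library size by trimmed mean of M-values; SD, n = 5 each), a log2 fold change of -6.39 (SE 0.51, edgeR quasi-likelihood adjusted p = 0.000904). The summed CPM of 6 epithelial markers was 9330 to 12420 in WT and 9650 to 14220 in dIEC libraries. Of 9 leukocyte markers, Ptprc and Cd68 were listed, with a summed 2.67 to 5.74 CPM in WT and 2.05 to 6.70 in dIEC, and Cd3e, Cd3g, Cd8a, Lyz2 and Adgre1 were among the markers not listed. Of 7 dendritic cell markers only Zbtb46 was listed, at 0.083 to 0.897 CPM in WT and 0 to 1.10 in dIEC. Their part in the results below was not tested. In such bulk libraries, fewer cells that express a gene and less RNA per cell cannot be told apart.

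Per kilobase of transcript, B2m was by far the most abundant of the 10, at 993 ± 145 CPM per kb over the 10 libraries. Psmb10 (142 ± 21.7), Tapbp (140 ± 44.7) and Psme1 (129 ± 19.3 CPM per kb) followed and overlapped each other. Psme2 (67.2 ± 9.53) and Psmb8 (62.5 ± 21.1) overlapped too, as did Tap1 (41.3 ± 17.6), Psmb9 (31.3 ± 9.19) and Tap2 (20.2 ± 8.34 CPM per kb) with their neighbours. Nlrc5 was the rarest, at 1.67 ± 1.64 CPM per kb. Lengths are those of the principal transcript, and with all annotated exons Tap2 (18.4) stood above Psmb9 (11.6 CPM per kb) and Tapbp (112) above Psmb10 (109). The rarest gene was also the most variable: the SD of Nlrc5 was 98.5% of its mean, and its highest library held 26.0 times its lowest. Tap1 (42.7%), Tap2 (41.2%), Psmb8 (33.8%), Tapbp (31.9%) and Psmb9 (29.4%) came next. Psmb10, Psme1, B2m and Psme2 varied least, between 14.2% and 15.3%.

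None of the 10 genes passed the test of dIEC against WT. The largest difference was that of Nlrc5, with a mean of 18.5 ± 15.1 CPM in dIEC and 6.84 ± 6.07 in WT libraries (SD, n = 5), a log2 fold change of 1.45 (SE 0.75). It was 0.94 without WT 8, 0.96 without dIEC 7, 2.04 without WT 2 and 0.24 in a separate fit of the males alone. By edgeR's quasi-likelihood test with sex as a covariate, 0 of 10 were called at an adjusted p under 0.05, against 0.016% of all genes tested, and every adjusted p was 0.9999. At an unadjusted p under 0.05 the count was 0 of 10 as well, against 2.85% of all genes. DESeq2 and limma-voom each called 0 of 10, and at an unadjusted p under 0.05 DESeq2 counted 1, Nlrc5, and limma-voom 0. The log2 fold change was above 0 for 7 genes and below 0 for 3, with a median of 0.21 beside 0.013 for all genes. WT and dIEC libraries overlapped for all 10, and full separation was seen in 0.313% of all genes. The median was -0.041 without dIEC 7 and 0.052 without WT 8, the 2 libraries that most often stood at the ends. Without dIEC 1 it was 0.33.

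**Figure D1:**
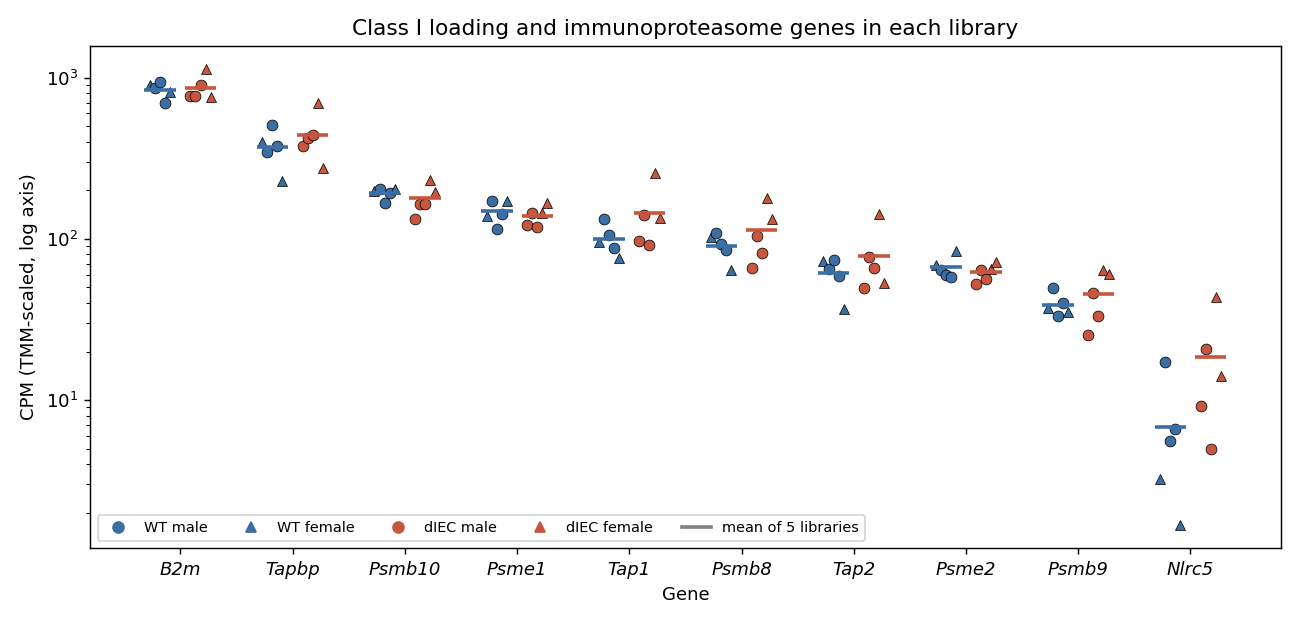
CPM on a log axis for each of the 10 genes in each library, WT beside dIEC, with females and males marked apart and a bar at each group's mean. The groups overlap for every gene, and Nlrc5 spreads from 1.67 to 43.3 CPM while Psme2 stays between 52.3 and 84.5 CPM.

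Among the peptide pump and its partners, Tap1 stood at 133, 106, 87.9, 76.4 and 95.9 CPM in WT 2, 4, 6, 8 and 10. In dIEC 1, 3, 5, 7 and 9 it stood at 96.7, 141, 91.5, 256 and 135 CPM. WT 8 was the lowest and dIEC 7 the highest, and the other libraries of both groups mixed. The log2 fold change was 0.48 (SE 0.28), and 0.21 without dIEC 7, 0.31 without WT 8 or 0.63 without WT 2. Tap2, the second chain of the pump, ran from 36.9 in WT 8 to 73.6 CPM in WT 4 and from 49.8 in dIEC 1 to 143 CPM in dIEC 7. Tapbp followed the same extremes, from 228 CPM in WT 8 to 698 in dIEC 7. Its log2 fold change was 0.26 (SE 0.28) and that of Tap2 was 0.32 (SE 0.31), and without dIEC 7 they were -0.051 and -0.032. B2m was at 843 ± 93.2 CPM in WT and 866 ± 161 in dIEC libraries, a log2 fold change of 0.035 (SE 0.17), and -0.080 without dIEC 7. dIEC 7, at 1135 CPM, was again its highest library, and no other exceeded 935 CPM.

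The immunoproteasome subunits differed in sign among themselves. Psmb8 stood at 108, 93.4, 84.8, 64.3 and 103 CPM in WT 2, 4, 6, 8 and 10, and at 65.8, 104, 81.7, 180 and 132 CPM in dIEC 1, 3, 5, 7 and 9. The dIEC libraries held both the highest values, in the females, and a value next to the lowest, in dIEC 1. Its log2 fold change was 0.25 (SE 0.25), and 0.048 without WT 8, 0.084 without dIEC 7 or 0.39 without dIEC 1. Psmb9 was at 33.1 to 49.8 CPM in WT and at 25.4, 46.1, 33.1, 63.7 and 60.2 CPM in dIEC 1, 3, 5, 7 and 9, with the dIEC females above every other library. Psmb10 differed in sign, at 194 ± 15.1 CPM in WT and 178 ± 37.9 in dIEC, a log2 fold change of -0.14 (SE 0.14). The PA28 genes were also nearer to their WT level, with -0.096 (SE 0.14) for Psme1 and -0.11 (SE 0.11) for Psme2. Their highest library was WT 8, the one that held the least Nlrc5, Tap1, Tap2, Tapbp and Psmb8.

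Nlrc5 stood at 17.1, 5.53, 6.65, 1.67 and 3.23 CPM in WT 2, 4, 6, 8 and 10, from 206, 46, 85, 20 and 36 counts. In dIEC 1, 3, 5, 7 and 9 it stood at 9.21, 20.8, 4.94, 43.3 and 14.1 CPM, from 88, 248, 58, 377 and 229 counts. The WT females were the lowest libraries of all and dIEC 7 the highest, while WT and dIEC males interleaved. dIEC 7 was the highest library for 8 of the 10 genes, and for 24.1% of all genes tested. WT 8 was the lowest for 5 of the 10, and for 16.3% of all genes.

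The genotype difference was then taken within each sex. Between females, Nlrc5 was at 28.7 CPM in dIEC and 2.45 CPM in WT, a log2 fold change of 3.54 (SE 0.89). Tap1 followed at 1.18 (SE 0.35), Psmb8 at 0.90 (SE 0.30), Tap2 at 0.85 (SE 0.46), Psmb9 at 0.78 (SE 0.28) and Tapbp at 0.64 (SE 0.43). B2m (0.14), Psmb10 (0.091), Psme1 (-0.0067) and Psme2 (-0.16) were near 0. Both dIEC females exceeded both WT females for Nlrc5, Tap1, Psmb8 and Psmb9, 4 of 10 beside 7.53% of all genes, and both were below them for 0 of 10, beside 10.3%. None was called by edgeR in females (0 of 10, 0.0401% of all genes, smallest adjusted p = 0.6378). At an unadjusted p under 0.05 the edgeR count was 4 of 10, against 4.07%, and all 4 (Nlrc5, Tap1, Psmb8 and Psmb9) were higher in dIEC, against 1.38%. Without dIEC 7 the value for females was -0.035 for Tap2, -0.19 for Tapbp, 0.65 for Tap1 and 2.52 for Nlrc5. With other libraries left out it reached 1.41 for Tap2, 1.16 for Tapbp, 1.57 for Tap1 and 4.14 for Nlrc5. The count of 4 at an unadjusted p under 0.05 fell or rose with which female was left out, and each such run left 1 library in a group. limma-voom also called 0, and DESeq2 called 1, Nlrc5, at 3.56 (DESeq2 adjusted p = 0.00356), beside 0.569% of all genes called by DESeq2. With a score of proliferation markers as covariate, chosen after seeing the data, edgeR called Tapbp, at 0.71 (edgeR adjusted p = 0.0275), beside 3.48% of all genes.

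Between males the same genes gave other values. Nlrc5 had a log2 fold change of 0.25 (SE 0.65), Tap1 0.0097 (SE 0.28), Psmb8 -0.19 (SE 0.24) and Psmb9 -0.23 (SE 0.23). The median over the 10 genes was -0.056 in males and 0.71 in females, and the female median was 0.025 without dIEC 7 and 0.38 without WT 8. edgeR called 0 of 10 in males (0.016% of all genes), and 0 of 10 had an unadjusted p under 0.05 (0.761% of all genes); DESeq2 and limma-voom called 0. The test of the difference between the sexes itself also called 0 of 10 by edgeR (0.00801% of all genes), DESeq2 or limma-voom. At an unadjusted p under 0.05 it counted 4 of 10, against 2.1% of all genes, and all 4 were larger in females, against 1.01%. They were Nlrc5 at 3.29 (SE 1.07), Psmb8 at 1.09 (SE 0.39), Psmb9 at 1.01 (SE 0.37) and Tap1 at 1.17 (SE 0.45). Every edgeR adjusted p was 1.0, and the smallest by DESeq2 was 0.3925. The count of 4 was 0 without WT 8, 1 without dIEC 7, 2 without WT 2 and 6 without dIEC 9. Without dIEC 7 the value for Tap1 was 0.64, and over all libraries left out in turn that for Nlrc5 lay between 2.27 and 4.02. Each female group held 2 libraries. Sex alone, across both genotypes, gave 0 of 10 called by edgeR (0.0401% of all genes) and by DESeq2 and limma-voom, and 1 of 10, Psme2, at an unadjusted p under 0.05, against 4.44% of all genes.

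**Figure D2:**
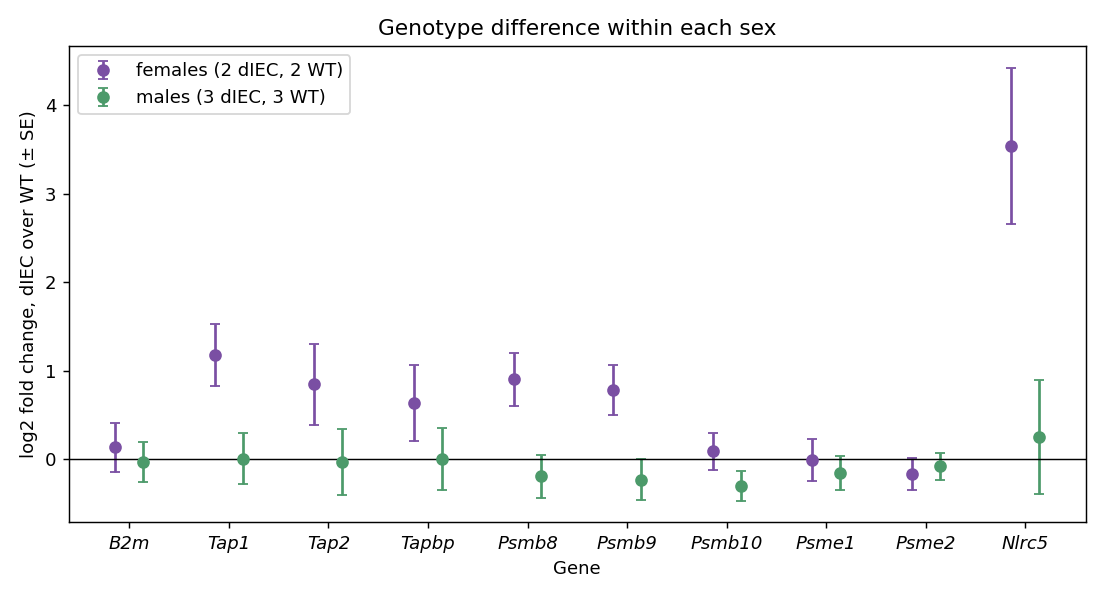
Log2 fold change of dIEC against WT for each gene, fitted in females (2 libraries a group) and in males (3 a group), with bars of 1 SE. Nlrc5, Tap1, Psmb8, Tap2, Psmb9 and Tapbp lie between 0.64 and 3.54 in females and between -0.23 and 0.25 in males, and none of the values passed the test by edgeR.

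The genes were next set against Nlrc5 over the 10 libraries, on log2 CPM. Tap1 lay closest, with r = 0.907 (permutation p = 0.00012, 100000 draws) and Spearman's rho = 0.879 (permutation p = 0.00178). In rank of r it was number 16 of 12476 genes, yet its adjusted p over all of them was 0.238. Without WT 8 and dIEC 7, the libraries farthest from the median of Nlrc5, r was 0.85, and in the 6 males alone it was 0.887 (exact permutation p = 0.0292). Leaving out any 1 library gave 0.897 to 0.925.

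Psmb8, Psmb9 and Tap2 came next. For Psmb8 r was 0.756 (permutation p = 0.0118, adjusted p = 0.684; rho = 0.745, p = 0.0177), and it was 0.362 without WT 8 and dIEC 7. For Psmb9 r was 0.679 (permutation p = 0.0321, adjusted p = 0.791; rho = 0.673, p = 0.0394), and 0.571 without them. For Tap2 r was 0.689 (permutation p = 0.0275, adjusted p = 0.788; rho = 0.442, p = 0.204), and -0.143 without them. Leaving out any 1 library gave 0.44 to 0.778 for Tap2, and leaving out both of those also narrows the range of Nlrc5. Tapbp had r = 0.535 (permutation p = 0.107; rho = 0.248, p = 0.493), which became -0.466 without them. B2m (r = 0.271, rho = -0.0788), Psmb10 (0.162, 0.0909), Psme1 (0.109, 0.248) and Psme2 (-0.274, -0.0909) had permutation p-values of r from 0.446 to 0.767. Of the 9 genes 0 were called at an adjusted p under 0.05, against 0.0% of all genes, and 4 had a positive r at an unadjusted p under 0.05, against 2.22%. B2m, Tap1 and Psmb9 held both TGACG and CCAAT, and their r with Nlrc5 were 0.271, 0.907 and 0.679. Tap1 and Psmb9 share the same letters, so they are not separate cases. In that order of motifs, matches began at -78 and -53 in B2m, -86 and -222 in Tap1, and -144 and -8 in Psmb9.

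**Figure D3:**
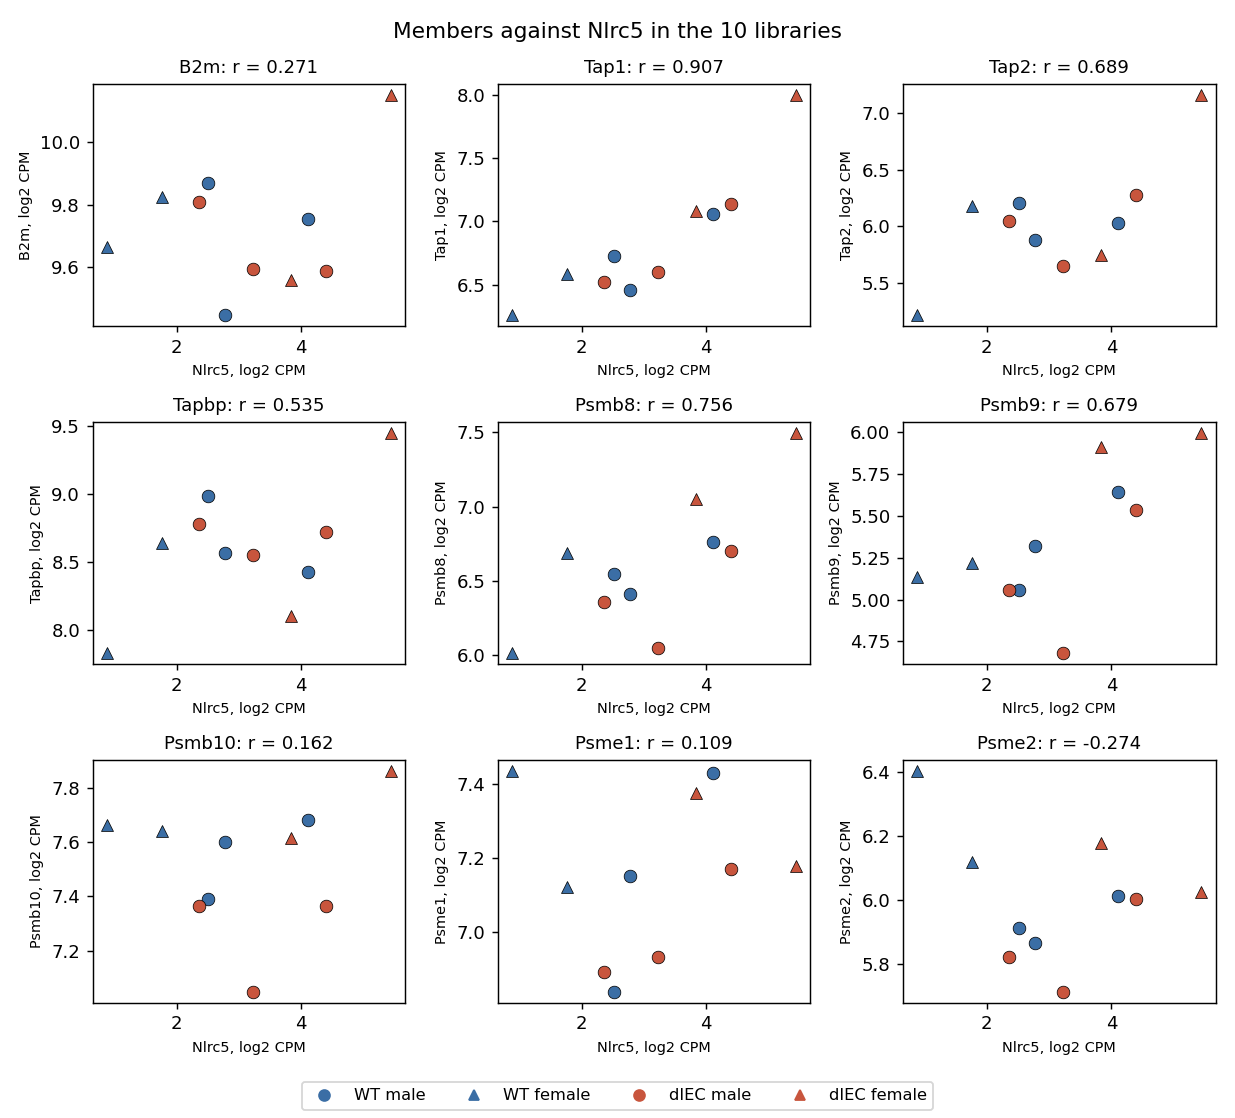
Log2 CPM of each of the other 9 genes against log2 CPM of Nlrc5, one point per library, WT and dIEC and the sexes marked apart, with r in each panel. Tap1 is lowest where Nlrc5 is lowest and highest where Nlrc5 is highest (r = 0.907), with little trend in the lower middle of the range. For Psme2 r is below 0 (r = -0.274), and dIEC 7 is the rightmost point of every panel.

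The 10 genes most like Nlrc5, among those of at least 1 CPM on average, were Mir5107, Nfkb2, Cd74, Gbp7, Ciita, Ubd, H2-Aa, Gbp6, Zbp1 and Bcl9. Their r with Nlrc5 ran from 0.915 to 0.958 over the 10 libraries, each with an adjusted p of 0.238. Mir5107 lies within Cd74 on the same strand, so these are not separate readings. Ciita, the class II transactivator, had r = 0.929 with Nlrc5 (permutation p = 0.00021; rho = 0.891, p = 0.0012), and 0.926 in the males. It stood at 22.3 ± 18.6 CPM in WT and 63.9 ± 58.1 in dIEC libraries (SD, n = 5), a log2 fold change of 1.16 (SE 0.78).

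Among the members themselves, other pairings were as close as those with Nlrc5. Tap2 and Tapbp had r = 0.914 (permutation p = 0.00066, adjusted p over all genes 0.0305 against Tap2), and 0.654 without WT 8 and dIEC 7. In males r was 0.579. Their rho was 0.879 (permutation adjusted p = 0.0576 against Tap2 and 0.0140 against Tapbp). Of all genes, 9.38% were called with Tap2 and 20.2% with Tapbp. Tap1 and Tap2 had r = 0.821 (permutation adjusted p = 0.0499 against Tap2 and 0.762 against Tap1), and 0.167 without WT 8 and dIEC 7. Psmb8 and Psmb9, which together with Tap1 and Tap2 lie side by side within the class II region of chromosome 17, had r = 0.886 (permutation p = 0.0008, adjusted p = 0.855; rho = 0.879), and 0.92 without WT 8 and dIEC 7. Tap1 had r = 0.904 with Psmb8 (permutation p = 0.00054, adjusted p = 0.406; rho = 0.855) and 0.783 with its divergent partner Psmb9 (permutation p = 0.00533, adjusted p = 0.762; rho = 0.648). Without dIEC 7 and dIEC 9, r was 0.747 for Psmb8 with Psmb9 and 0.601 for Tap1 with Psmb9. For Tap1 with Psmb8 it was 0.722 without WT 8 and dIEC 7. Without dIEC 3 and dIEC 7, Tap1 had r = 0.83 with Psmb8 and 0.683 with Psmb9. Psme1 and Psme2, neighbours on chromosome 14, had r = 0.761 (adjusted p = 0.162 by permutation). In all, each of the 10 genes was set against 12476 others, and these pairs were picked after all had been seen.

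**Figure D4:**
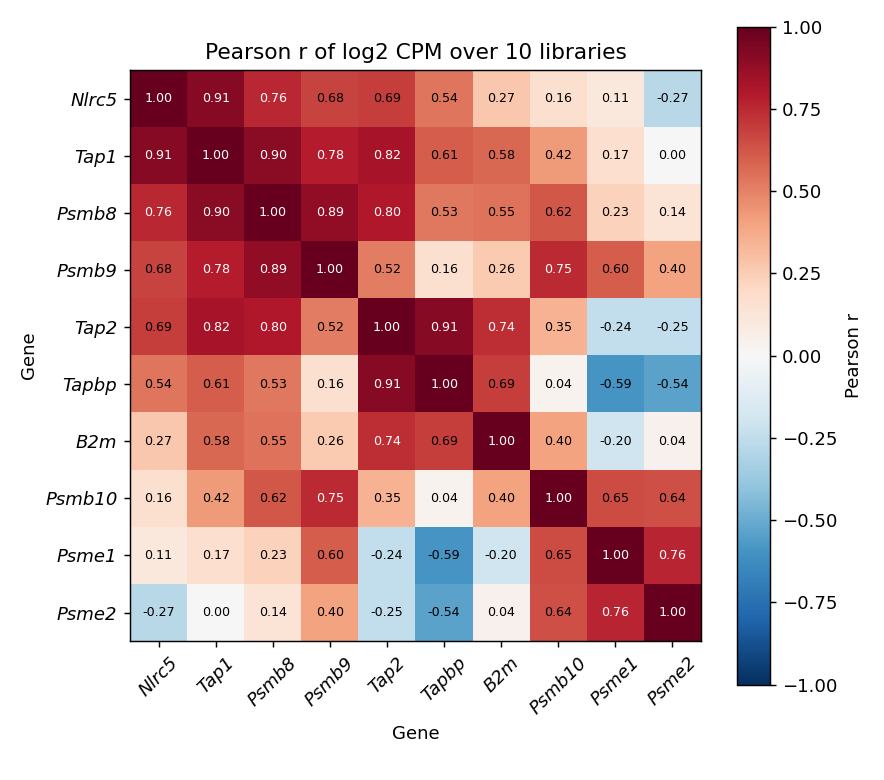
Pearson r of log2 CPM between every pair of the 10 genes over the 10 libraries, on a colour scale from -1 to 1. Pairs among Tap1, Tap2, Psmb8, Psmb9 and Nlrc5 lie between 0.52 and 0.91, Tap2 pairs with Tapbp (0.914), and Psme1 pairs with Psme2 (0.761).

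B2m was low where markers of proliferating crypt cells were high. Against a score of 8 such markers (mean log2 CPM, among them Mki67 and Top2a), B2m had r = -0.849 over the 10 libraries (permutation p = 0.00142, adjusted p over all genes 0.00787; rho = -0.842, p = 0.00374), and -0.717 without WT 10 and dIEC 7. It was the only one of the 10 genes to pass, beside 40.3% of all genes called in either direction. Tapbp (r = -0.701, adjusted p = 0.0523 by permutation) and Tap2 (r = -0.641, adjusted p = 0.0827 by permutation) missed the threshold, and Nlrc5 had r = 0.0199. The dIEC females stood at the ends of the score, with 3.68 in dIEC 7 and 6.34 in dIEC 9.

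Positions bear on how these counts can be read. On mm10, Psmb9 spans chr17:34181987-34187764 on the minus strand, Tap1 chr17:34187553-34197225, Psmb8 chr17:34197721-34201454 and Tap2 chr17:34203527-34216321, all on the plus strand. The starts of Tap2, Psmb8 and Tap1 lie 54.2 to 70.1 kb from the start of H2-Ab1, the floxed gene. The end of Psmb9 lies 75.7 kb from it, and the start of Tapbp (chr17:33915899-33929292) lies 341.8 kb away. Psmb10 (chr8:105935735-105938444) and Nlrc5 (chr8:94434356-94527272) share chromosome 8, Psme1 (chr14:55578123-55581529) and Psme2 (chr14:55587441-55591113) lie on chromosome 14, and B2m (chr2:122147686-122153083) on chromosome 2. Tap1 and Psmb9 share 212 exon bases on opposite strands. Antisense transcripts cover 24.9% of the exon bases of Tapbp (Gm19412), 14.7% of those of Psmb8 (Gm20496) and 14.1% of those of Tap2 (Gm15821). The libraries were stranded, but no label or note here says whether the counting used strand, and reads in these overlaps are therefore uncertain. Psme2 has a near-identical copy, Psme2b, with 99.4% identity over 794 aligned bases. Psme2b was listed at 5.50 ± 0.96 CPM in WT and 4.91 ± 1.33 in dIEC libraries, and the split of reads between the copies is uncertain.

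The standard subunits all had values below 0. Psmb5, Psmb6 and Psmb7 had log2 fold changes of -0.25 (SE 0.20), -0.23 (SE 0.13) and -0.42 (SE 0.24), none called. Their summed level was 275 CPM in WT 8 and 145 to 197 CPM in the other WT libraries. Per length, Psmb8 was 291 ± 108% of Psmb5 in WT and 404 ± 188% in dIEC libraries, from 133% in WT 8 to 728% in dIEC 7. Psmb9 was 20.3 ± 5.10% of Psmb6 in WT and 26.7 ± 7.80% in dIEC, from 13.3% to 38.0% in the same libraries. Psmb10 was 305 ± 81.3% of Psmb7 in WT and 368 ± 124% in dIEC, from 195% to 576%, again in WT 8 and dIEC 7. Psmb10 itself was not low in WT 8, at 203 CPM within a WT range of 168 to 205. Psmb7 was at its highest there, at 92.2 CPM. The groups overlapped for all 3 ratios, which are given as a description. The percentages depend on the lengths used: with all annotated exons the ratio in dIEC 7 was 351% for Psmb8, 32.9% for Psmb9 and 1305% for Psmb10. In WT 8 these ratios were 63.9%, 11.5% and 441%, so with these lengths Psmb8 stood below Psmb5 there.

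**Figure D5:**
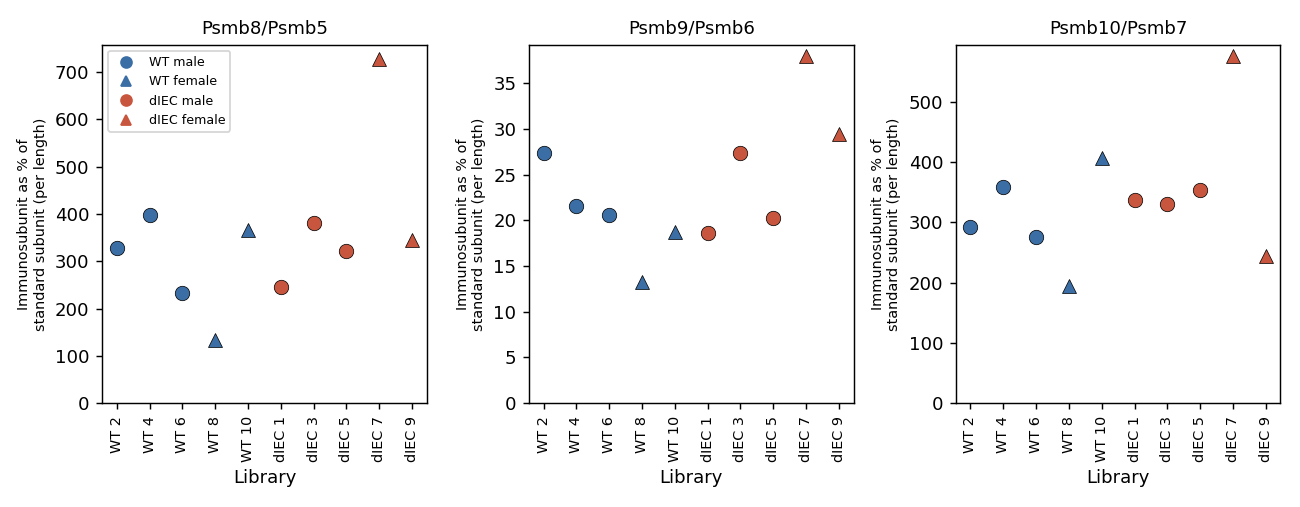
Each immunoproteasome subunit as a percent of the standard subunit it replaces, per transcript length, in each library, with WT and dIEC and the sexes marked apart and each axis starting at 0. WT 8 is the lowest and dIEC 7 the highest point for all 3 pairs, and the other libraries of the groups overlap.

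The wider pathway was read from lists of its parts, and 0 genes of any list were called by edgeR in the genotype comparison. All 16 other core and assembly genes (median log2 fold change -0.23), all 18 of the 19S particle (-0.13) and both other activators, Psme3 and Psme4 (-0.065), had values below 0. WT 8 stood apart here, with 1190 summed CPM of the core genes against 584 to 826 in the other WT libraries. Without it 13 of 16 core genes (median -0.062) and 15 of 18 of the 19S particle (-0.066) were below 0. Of 6 chaperone and peptide editing genes 5 were below 0 (median -0.24), among them Calr at -0.26 (SE 0.17) and Canx at -0.24 (SE 0.23), which fold the heavy chain. WT 8 was again the highest, at 4282 summed CPM, and without it 4 of 6 were below 0 (median -0.067). Of 15 class I heavy chain genes tested, 13 were above 0 and 2 below, with a median of 0.31, and without dIEC 7 it was 9 and 6, with a median of 0.043. H2-K1 had 0.35 (SE 0.29) and H2-D1 0.31 (SE 0.25). These paralogs share reads, so the values of single heavy chains are uncertain. At an unadjusted p under 0.05 the lists gave 0 genes, except 3 of 15 heavy chains and 4 of 14 interferon gamma response genes, beside 2.85% of all genes.

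Upstream of the 10 genes, the interferon signalling list had 14 of 19 above 0 (median 0.13), and 6 of 19 without dIEC 7 (median -0.024). The receptor chains Ifngr1 and Ifngr2 had 0.098 (SE 0.13) and -0.060 (SE 0.18). The 6 RFX and NF-Y genes, partners of Nlrc5, had 4 above 0 and a median of 0.065. Of 22 interferon gamma response genes outside class I, 19 were listed and 14 were tested. All 14 were above 0 in the genotype comparison, beside 52.6% of all genes. Low genes could pass the filter through their dIEC libraries alone, so this count is only a description. The median was 0.96 (0.49 without WT 8), with 2.48 in females and 0.057 in males, and the median r with Nlrc5 was 0.85. Gbp2, a guanylate-binding protein of that response, was at 2.30 ± 1.69 CPM in WT and 5.61 ± 4.41 in dIEC libraries. The 6 other class II genes had medians of 1.45 over all libraries (0.70 without WT 8), 4.21 in females and -0.15 in males, with r from 0.817 to 0.953. At an unadjusted p under 0.05 the edgeR test of the sex difference counted all 6 and 8 of the 14 response genes, beside 2.1% of all genes. It also counted 2 of 15 heavy chains and 1 of 19 interferon signalling genes, and 0 of the standard proteasome, 19S and chaperone genes. None of these genes was called, and the list counts for this test were not repeated with libraries left out.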

How the data were processed

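The 10 genes and all lists were chosen with earlier results of these data known. Total RNA libraries were made with a stranded, rRNA-depleting kit, per the labels' protocols. The submitters' processing notes name Novoalign and the build mm10. What program, annotation and strand setting gave the counts was not given in the sources used here. The authors deposited raw counts per gene, with every listed gene reaching 10 counts in at least 1 library. Genes were filtered with filterByExpr (89.6% kept) and scaled by TMM. CPM per library came from these sizes, with a prior count of 2 on the log2 scale for correlations. edgeR 4.0.16 quasi-likelihood fits, with Benjamini-Hochberg adjustment over 12477 genes and a threshold of 0.05, compared genotype (sex as covariate), sex, their interaction and genotype within each sex. DESeq2 1.42.0 and limma 3.58.1 were alternatives, with other scaling, no filter, single libraries left out and a proliferation covariate. Correlations used 100000 permutations, so 1e-05 is the smallest p they can give. Pairs of libraries of 1 group differed by 15.5 to 149 times sampling noise (chi-square per degree of freedom), so none was a duplicate. Gene models are from GENCODE vM21, and promoters from RefSeq on GRCm38.p6. All members were named, with the first tested genes of each list and the genes most like Nlrc5. The fits were tested on simulated data. There the genotype fit missed most 2-fold changes and the interaction fit most 4-fold changes, so a gene not called may still differ. R 4.3.3 and Python 3.11.15 were used.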

Additional observations from a re-analysis of the deposited data

Results flagged for a closer look

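Psmb10 in WT 4 had a log2 CPM of 7.39, the lowest of the 5 WT libraries. Its gap to the next WT library was 0.718 of the group's range, above Dixon's 95% limit of 0.71 for 5 samples. 20 groups, each gene in WT and in dIEC, were examined, and chance flags about 1 in 20.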

How the results depend on the processing

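The members called numbered 0 in the genotype, sex, interaction and Nlrc5 comparisons under every alternative run, which with 2 females a group says nothing about the stability of the interaction. The list medians with libraries left out were added after seeing the data. Over all genes, the genotype comparison called 2, and 4 with DESeq2 or 5 with the proliferation covariate. In females, Nlrc5 passed with DESeq2 (3.56) and Tapbp with the proliferation covariate (0.71). No paired analysis was run. The replicate numbers alternate between the groups, odd in dIEC and even in WT, with males at 1 to 6 and females at 7 to 10. The labels do not say whether this order reflects pairing or processing.

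Signs of uncalled values changed as follows, and the cause was not tested beyond the libraries left out. In males alone, without WT 8 and WT 10, and without dIEC 7 and dIEC 9, in that order, the genotype log2 fold change was -0.035, -0.035 and -0.031 for B2m, -0.032, -0.034 and -0.029 for Tap2, -0.19, -0.195 and -0.19 for Psmb8, and -0.24, -0.24 and -0.23 for Psmb9. With sex as covariate, leaving out both females of a group leaves only the males to give the genotype value. Those runs are thus near repeats of the males alone and not separate checks. With library size alone as scaling, the interaction was 0.021 for Psme2, the female value 0.071 for Psme1 and the male value -0.024 for Tap1. With DESeq2's size factors in edgeR, and with DESeq2 itself, the female value was 0.0030 and 0.0033 for Psme1 and the male value -0.0024 and -0.0025 for Tapbp. The correlation of B2m with Nlrc5 was -0.0788 by rank, -0.257 without dIEC 7 and dIEC 9, and -0.265 in males. That of Tapbp was -0.512 in males, that of Psmb10 -0.313 and of Psme1 -0.0108 without dIEC 7 and dIEC 9, and that of Psme2 0.582 without WT 8 and WT 10 and 0.612 in males.

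Leaving out single libraries gave genotype log2 fold changes of -0.080 to 0.10 for B2m, -0.032 to 0.46 for Tap2 and -0.051 to 0.39 for Tapbp. The interaction ran from -0.16 to 0.43 for B2m, -0.0046 to 1.45 for Tap2, -0.20 to 1.15 for Tapbp, -0.0074 to 0.36 for Psme1 and -0.22 to 0.11 for Psme2. In females the range was -0.19 to 0.40 for B2m, -0.035 to 1.41 for Tap2, -0.19 to 1.16 for Tapbp, -0.043 to 0.21 for Psmb10, -0.16 to 0.20 for Psme1 and -0.30 to 0.024 for Psme2. In males it was -0.14 to 0.061 for B2m, -0.21 to 0.18 for Tap1, -0.18 to 0.12 for Tap2, -0.10 to 0.19 for Tapbp, -0.29 to 7.95e-05 for Psme1 and -0.47 to 0.93 for Nlrc5. For r with Nlrc5 it was -0.33 to 0.381 for B2m, -0.217 to 0.362 for Psmb10, -0.00647 to 0.522 for Psme1 and -0.369 to 0.248 for Psme2. Where a female group was left with 1 library, that library was assumed to vary like the others. Low counts limit Nlrc5, with 20 counts in WT 8.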

Other observations

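With the proliferation score taken out of every gene, r with Nlrc5 over the 10 libraries was 0.954 for Tap1, 0.915 for Tap2, 0.793 for Psmb8, 0.771 for Tapbp, 0.679 for Psmb9, 0.545 for B2m, 0.170 for Psmb10, 0.111 for Psme1 and -0.274 for Psme2, and 0 of 9 genes passed the adjusted threshold by permutation. With sex and genotype taken out it was 0.952 for Tap1, 0.879 for Psmb8, 0.843 for Psmb9, 0.715 for Psmb10, 0.681 for Tap2, 0.469 for Tapbp, 0.395 for Psme1, 0.333 for B2m and -0.0637 for Psme2, and again 0 of 9 passed. The first of these was chosen after seeing the data.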
